A study of Mus musculus with 2 samples.

Results

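Retained-intron isoforms are transcripts whose annotated exons hold sequence that the coding transcripts of the same gene remove as intron. Their levels in newly made and in preexisting RNA were compared with those of the coding isoform of the same gene with the highest value. Members were the transcripts that the GENCODE M21 annotation of the mouse genome (build GRCm38) types as retained intron and whose gene has a protein-coding transcript among the measured ones. Genes with symbols starting in Srsf, Hnrnp or Clk were left out, which removed 78 isoforms. This gave 15751 isoforms of 6776 genes, out of 121429 transcripts with an exon value. The partner of each was the coding transcript of its gene with the highest mean exon value over both libraries. This can be a short coding transcript rather than the longest of the gene.

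The cells were wild-type pluripotent stem cells of mouse embryos, line DTCM23/49 XY, freed of feeder cells and grown with serum and leukemia inhibitory factor. All were given 200 µM 4-thiouridine (4sU), which takes the place of uridine in RNA made while it is present, for 10 min. RNA that carried 4sU was tagged with biotin and captured, and this labeled RNA and the RNA left behind were each sequenced as 1 library, both of replicate 1. The labels call the second library total in one place and preexisting in another, and it is called unlabeled here. Other replicates were not analysed here, so no difference below has a replicate check and none was tested. Intervals of medians and shares treat transcripts as independent, although transcripts share reads and genes and are not replicates.

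Splicing removes introns from new transcripts, usually while the RNA is still being made or soon after. A transcript that keeps an intron can stay in the nucleus until the intron is removed, can be degraded there, or can reach the cytoplasm. In the cytoplasm a stop codon inside the kept intron can expose it to nonsense-mediated decay, the pathway that degrades mRNA with a premature stop. In short-labeled RNA the introns of transcripts that are not yet spliced are also present, and short reads within an intron do not tell an unfinished transcript from a finished isoform that keeps the intron.

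The deposited values are relative abundances per transcript, 1 for the exons and, where a transcript has introns, 1 for them. They are called TPM, a measure normalised for depth and transcript length, but a column adds up to 10 times what that unit allows, and values below are in this deposited unit. A higher labeled value is therefore a larger share of the labeled RNA, not more molecules. A level averaged over a culture also does not separate fewer cells with an isoform from less of it per cell. The 9 genes that mark embryonic stem cells summed to between 87.4 and 6384 in labeled RNA and between 72.9 and 10031 in unlabeled RNA. The 6 genes that mark feeder fibroblasts reached at most 6.03 and 14.5, and the 6 genes of differentiated lineages at most 137.8 and 151.4, both for Pax6. Introns held 15.4% of the labeled column and 6.26% of the unlabeled one.

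The members were shorter than their partners, with a median of 849 bases against 2429, and had a median of 3 exons against 11. A whole intron of the partner lay inside an exon of 3874 members, or 24.6%, and a whole intron of any coding transcript of the gene inside an exon of 29.5%. In 73.8% at least 1 end of the isoform lay inside an intron of the partner, and 1446, or 9.18%, lay wholly outside its span. Most isoforms of this type thus begin or end within an intron rather than keep one from splice site to splice site. The median member had 40.8% of its bases outside every annotated coding-transcript exon of its gene, and 82 members had none there. Of all members, 1510 were at 0 in both libraries, 1154 in unlabeled RNA only and 394 in labeled RNA only. The matching shares over all transcripts are not given here, so these counts are not read as a trait of the members. Together the members held 10.6% of the labeled exon value and 11.2% of the unlabeled one.

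Among the introns kept whole, 4550 were distinct, in 2459 partner transcripts. Their median length was 255 bases (95% interval 243 to 268), against 816 for the 26564 other introns of the same partners. Within their own partner, 74.3% were shorter than the median of its other introns. Their median GC content was 51.5%, and the exons of the partners had 53.7%. They began with GT and ended with AG in 98.5% of cases, 44 began with GC and ended with AG, and 6 were of the AT-AC kind. The kept introns were thus short and carried the usual terminal bases. Of 4382 that lay inside the partner's coding sequence, 3883, or 88.6%, held a stop codon in the reading frame of the upstream exons, at a median of 36 bases into the intron. Only 116 of the 499 without a stop also had a length divisible by 3, so that translation could read through them without a shift of frame.

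The kept introns of 6 isoforms that recur below are printed 5′ to 3′ from the GENCODE M21 transcript sequences, with the intron's number in the partner and its position on GRCm38. Capitals mark the first and last 2 bases and the first stop codon in the reading frame of the partner. Gapdh-206 and Ppia-204 are shown because their introns hold no such stop, Eef1a1-203 as an abundant isoform with one, Phykpl-204 for its high pair difference, described below, and Cnbp-204 and Mettl23-206 for their low ones.
Gapdh-206, intron 5 of 6 of Gapdh-212, chr6:125162394-125162477, minus strand: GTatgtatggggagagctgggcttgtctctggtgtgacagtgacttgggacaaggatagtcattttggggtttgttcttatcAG
Ppia-204, intron 2 of 4 of Ppia-202, chr11:6418132-6418225, plus strand: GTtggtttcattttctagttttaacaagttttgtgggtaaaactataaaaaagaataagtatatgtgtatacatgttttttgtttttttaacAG
Eef1a1-203, intron 6 of 7 of Eef1a1-201, chr9:78479193-78479277, minus strand: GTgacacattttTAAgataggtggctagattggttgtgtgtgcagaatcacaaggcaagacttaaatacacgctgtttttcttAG
Phykpl-204, intron 5 of 12 of Phykpl-201, chr11:51592094-51592168, plus strand: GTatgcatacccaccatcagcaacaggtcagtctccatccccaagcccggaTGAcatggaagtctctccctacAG
Cnbp-204, intron 2 of 4 of Cnbp-209, chr6:87845558-87845673, minus strand: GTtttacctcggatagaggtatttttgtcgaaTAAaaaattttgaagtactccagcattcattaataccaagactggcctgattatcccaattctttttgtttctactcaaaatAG
Cnbp-204, intron 3 of 4 of Cnbp-209, chr6:87845321-87845464, minus strand: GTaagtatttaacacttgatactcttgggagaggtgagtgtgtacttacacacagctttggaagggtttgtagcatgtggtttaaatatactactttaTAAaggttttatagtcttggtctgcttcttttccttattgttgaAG
Mettl23-206, intron 3 of 4 of Mettl23-201, chr11:116849139-116849215, plus strand: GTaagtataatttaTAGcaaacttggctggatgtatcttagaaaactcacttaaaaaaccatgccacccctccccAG
Mettl23-206, intron 4 of 4 of Mettl23-201, chr11:116849301-116849389, plus strand: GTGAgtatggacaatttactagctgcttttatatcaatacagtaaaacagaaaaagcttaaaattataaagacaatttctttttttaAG
The Gapdh intron has a length of 84 bases, which is divisible by 3, and the Ppia intron has 94, which is not. In Eef1a1 the first stop, TAA, starts at base 13 of the intron, and in intron 4 of Mettl23 the stop TGA starts at base 2, inside the splice site.

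The first question was whether retained-intron isoforms stand higher in labeled RNA, relative to unlabeled RNA, than the coding isoform of their gene. They did in 66.8% of the pairs measured, with a median difference of 0.30 on the log2 scale. Over all isoforms other than the partner, members included, 60.1% were above it, with a median of 0.11. For each transcript log2((labeled + 1)/(unlabeled + 1)) was computed from the exon values, and the partner's value was subtracted from the member's; this is the pair difference below. Both transcripts had to reach a mean exon value of 10, which 7831 pairs of 3458 genes did, 49.7% of the members. The members in these pairs had median exon values of 35.2 in labeled and 34.7 in unlabeled RNA, and the partners 64.7 and 97.6. Medians were thus nearly level between the libraries for the retained-intron isoforms and lower in labeled RNA for the coding isoforms. The quartiles of the pair difference were -0.15 and 1.02, and the interval of the median was 0.28 to 0.32.

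A difference of 2-fold or more in favour of labeled RNA was found in 2000 pairs, or 25.5% (95% Wilson interval 24.6 to 26.5%). Over all those isoforms the share was 13.3%. A difference of 2-fold or more in the other direction was found in 341 pairs, or 4.35%, where the share over all isoforms was 4.72%. In 994 of the pairs the member's unlabeled value was under 10, and these had to lean towards labeled RNA to enter. In 403 the labeled value was under 10, and these had to lean the other way. With both values of the member at 10 or more, 6434 pairs remained, the median difference was 0.24 and 19.9% were higher by 2-fold or more. With a minimum of 100 in place of 10, the 1511 pairs left had a median of 0.12, and 9.73% were higher.

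Other kinds of isoform, each over its own set of genes, had medians closer to the partner. Isoforms annotated as targets of nonsense-mediated decay, which usually carry a premature stop in spliced exons, had a median pair difference of 0.01 over 2793 pairs, with 5.98% higher by 2-fold or more. Coding isoforms below the partner in level had a median of 0.07 over 13155 pairs, with 6.20% higher. Processed transcripts, which lack an open reading frame, were in between, with a median of 0.13 over 4796 pairs and 16.8% higher. Within single genes that had both kinds, the median of the retained-intron isoforms exceeded that of the decay isoforms in 937 of 1286 genes, by a median of 0.36. It exceeded that of the lower coding isoforms in 1790 of 2584 genes, by a median of 0.31. Against processed transcripts it did so in 881 of 1405 genes, by a median of 0.25. The 78 isoforms of Srsf, Hnrnp and Clk genes that had been left out had a median of 0.42, with 13 (16.7%, interval 10.0 to 26.5%) higher and 0 lower by 2-fold or more, a share near that of all isoforms.

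**Figure D1:**
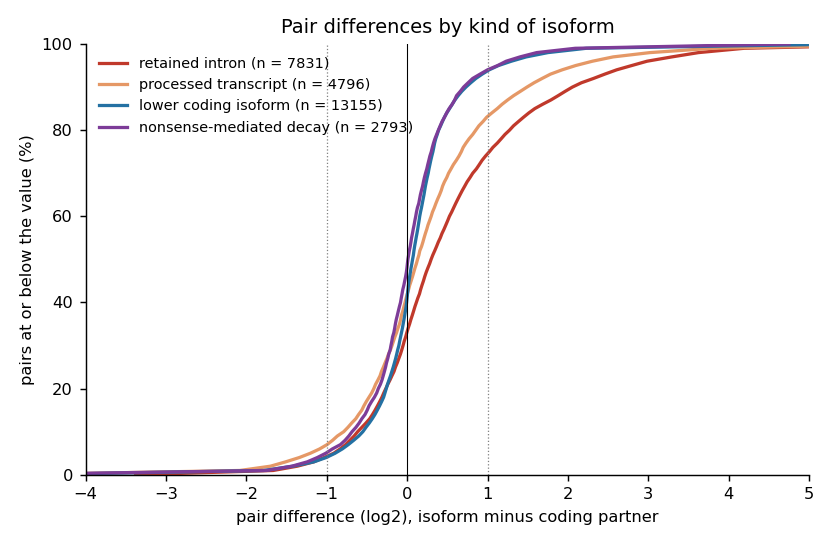
Cumulative share of pairs (vertical axis, %) against the pair difference (horizontal axis, log2) for 4 kinds of isoform, with dotted lines at 2-fold in each direction. The retained-intron curve lies to the right of the others over its upper part and passes 50% at 0.30, and 25.5% of its pairs lie beyond 2-fold on the right.

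Set against all transcripts rather than their own partner, the retained-intron isoforms were close to the middle. Relative to the median of all 48702 transcripts with a mean exon value of 10 or more, the 8013 members that reached it had a median of 0.16. Of these members 26.8% were 2-fold or more above that median, against 24.7% of all transcripts. Another 14.5% were 2-fold or more below it, against 15.9% of all transcripts. The coding partners had a median of -0.32, with 12.1% above and 20.9% below by 2-fold, and all 22501 coding transcripts a median of -0.29. The pair difference thus came with partners that, like other coding transcripts, lay under the median of all transcripts, and with members near it.

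The pair difference went with how much of an isoform lay outside coding exons. With under 10% of bases outside, the median was 0.01 over 786 pairs, and 7.25% were higher by 2-fold or more. It was 0.05 over 2183 pairs with 10 to under 30%, and 0.27 over 2806 pairs with 30 to under 60%. With 60% or more outside, the median was 1.25 over 2056 pairs and 57.4% were higher by 2-fold or more. With both values of the member at 10 or more, the median at 60% or more outside was 0.93 over 1436 pairs, and at under 10% it was 0.03 over 692. Isoforms made mostly of coding exon thus had a median near their partner, and those with most bases outside a higher one, to a degree that differed with their level. Across the 7831 pairs Pearson's r was 0.52 and Spearman's rho 0.46; pairs of 1 gene share a partner, so this is a description.

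The members with a high level differed less from their partners. With a mean exon value of 10 to under 30 the median was 0.50, and with 300 or more it was 0.06 over 525 pairs. Of the latter 28, or 5.33%, were higher by 2-fold or more. For lower coding isoforms the same medians were 0.09 and 0.06, so at the highest levels both kinds were alike in the middle of their distributions. They were less alike in the upper part, where 10 of 1015 lower coding isoforms at 300 or more, or 0.985%, were higher by 2-fold or more. Among members at 300 or more with at least 60% of bases outside coding exons, the median was 0.15 over 40 pairs (interval -0.0086 to 0.34), against 1.40 over 1135 pairs at 10 to under 30. The median unlabeled value of the latter was 10.8, so many of them entered through labeled RNA. With both values at 10 or more their median was 0.90 over 567 pairs, it was 1.14 at 30 to under 100 and 0.55 at 100 to under 300, so the difference by level was smaller and did not run in 1 order.

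**Figure D2:**
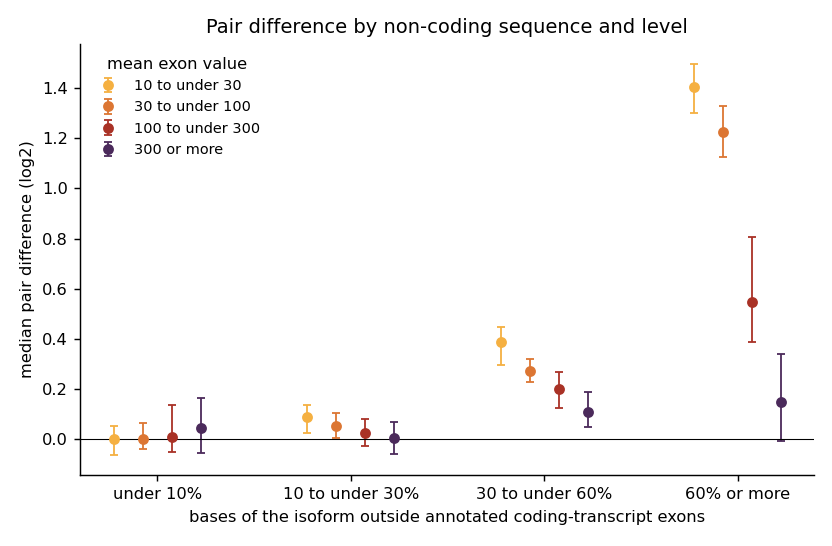
Median pair difference (vertical axis, log2) by the share of an isoform's bases outside coding-transcript exons (horizontal axis), in 4 ranges of mean exon value shown by colour, with bars for the 95% order-statistic interval of the median. All ranges lie near 0 at under 10%, and at 60% or more the median goes from 1.40 in the lowest range to 0.15 in the highest.

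Where an isoform begins and ends also went with its value. Members with neither end in a partner intron had a median of 0.17 over 2032 pairs, and members with only the 5′ end in one also 0.17 over 2307 pairs. Members with only the 3′ end in an intron had 0.53 over 2611 pairs, and those with both ends in introns 0.82 over 881. An annotated 3′ end inside an intron thus came with the larger differences at this minimum. The median unlabeled value was 28.8 with only the 3′ end in an intron, and lower still with both ends in introns. It was 33.8 with neither end in one and 49.5 with only the 5′ end in one. More members with a 3′ end in an intron may thus have entered through labeled RNA. The split by ends was not repeated with both values at 10 or more. The 489 members made of 1 exon had a median of 2.10, and 73.8% of them were higher by 2-fold or more. Their median unlabeled value was 11.0, so many passed the minimum only through labeled RNA, and among the 265 with both values at 10 or more the median was 1.29 and 58.9% were higher. Without single-exon members the median over the other 7342 pairs was 0.25. When partners were cut into 3 equal stretches, members centred in the stretch nearest the 5′ end had a median of 0.65, those in the middle 0.17 and those nearest the 3′ end 0.25. Members beyond an end were counted with the stretch nearest to it. Median unlabeled values in the 3 stretches were 24.4, 38.2 and 43.4, so more members of the first may have entered through labeled RNA.

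Members that kept exactly 1 whole intron of the partner could be ordered by that intron. With an intron under 150 bases the median pair difference was 0.02 over 515 pairs, and with 1000 bases or more it was 0.62 over 274. With a GC content of 55% or more it was 0.01 over 430 pairs, and under 45% it was 0.46 over 531. Members with a short or a GC-rich kept intron thus lay near their coding isoform. Median unlabeled values were 43.3 with an intron under 150 bases and 25.3 with 1000 or more, so more of the latter may have entered through labeled RNA. By GC content they ran the other way, at 28.7 with 55% or more and 51.7 under 45%. Length, GC content and the share of bases outside coding exons were not separated here. Where the kept intron held no stop in frame, the median was -0.00012 over 146 pairs, and where it held one, 0.20 over 1312. Introns without a stop had a median length of 92 bases, so stop and length were not separated here.

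Members of the same gene differed from each other. In 1983 genes with at least 2 pairs the median range of the pair difference was 1.11, and 998 of these genes, or 50.3%, had members on both sides of 0. Neither was computed for other kinds of isoform, so they are not read as a trait of the members. In 1712 genes the members spanned at least 10 percentage points of bases outside coding exons. In 1263 of these, or 73.8%, the member with the most such bases had a higher pair difference than the member with the fewest. The median gap between them was 0.63 over all 1712.

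The introns of the partner give a scale for unspliced RNA. In 5028 pairs the partner's introns had a mean value of 10 or more, and their median log2 of labeled over unlabeled was 1.89, against -0.05 for the member exons and -0.69 for the partner exons. This minimum was a mean of both libraries, so introns low in unlabeled RNA had to lean towards labeled RNA to enter. The same holds for the members, and neither was repeated here with both values at 10 or more. The member lay between partner exons and partner introns in 3065 pairs, or 61.0%. It lay above the introns in 532, or 10.6%, and at or under the partner exons in 1482. Over all isoforms other than the partner, with no minimum for introns, 60.1% lay above the partner exons. How many of those lay under the introns was not computed, so the 61.0% is not read as a trait of the members. With 60% or more of bases outside coding exons, the median of the members was 0.86 and 21.2% lay above the introns. With under 10% outside it was -0.72, and 2.74% did. The part that reads of unfinished transcripts have in the values of the members was not tested.

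**Figure D3:**
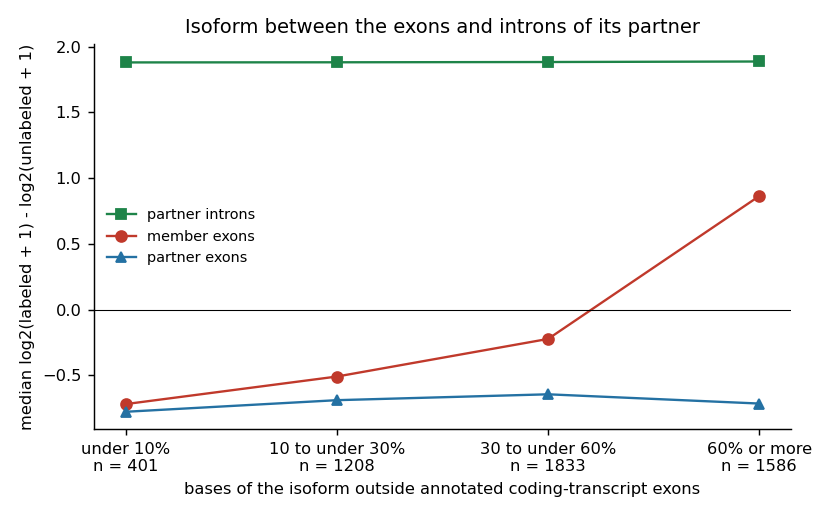
Median log2 of labeled over unlabeled value, each with 1 added (vertical axis), for partner introns, member exons and partner exons, by the share of the member's bases outside coding-transcript exons (horizontal axis). Partner introns stay at 1.88 to 1.89 and partner exons between -0.78 and -0.64, while member exons go from -0.72 to 0.86. Introns and exons entered by their mean over both libraries, so some entered through labeled RNA.

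The members' own intron values show the same order between libraries as those of coding isoforms. In 6162 members with all values above 0 the median ratio of intron to exon value was 0.445 in labeled and 0.0880 in unlabeled RNA. For 3381 partners the medians were 0.334 and 0.0549. The ratio was 1 or more in labeled RNA in 16.4% of members and 7.34% of partners. In 6.52% of members and 3.52% of partners the labeled ratio, under 1, did not exceed the unlabeled one. Members had the lower level, with a median mean exon value of 36.2 against 84.4 over the pairs. With a minimum of 100 the median ratios of members and partners were 0.194 and 0.172 in labeled RNA, and 0.0243 and 0.0233 in unlabeled RNA. The shares over all transcripts are not given, so these shares are not read as a trait of the members.

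Summed over a gene, retained-intron isoforms made up a large part of the exon value assigned to coding and retained-intron transcripts. Over 5042 genes with a mean sum of 10 or more, the median share was 35.1% in labeled and 27.8% in unlabeled RNA. The share was higher in labeled RNA in 3557 genes, or 70.6%, by a median of 3.76 percentage points over all genes (interval 3.47 to 4.13). It exceeded 50% in 1473 genes in labeled RNA, in 1134 in unlabeled RNA and in 980 in both. Because the values are per length of transcript, a short isoform needs fewer reads than a long one for the same share.

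The most abundant retained-intron isoforms belonged to genes of housekeeping function and differed little from their partners. Hsp90aa1-205, of the gene for a cytosolic heat shock chaperone, had 17942 in labeled and 26107 in unlabeled RNA, and its partner 11358 and 12756, a pair difference of -0.37. Gapdh-206, of the glycolytic enzyme, had 15623 and 18516 beside 9279 and 14051 for its partner, a difference of 0.35. Ppia-204, of cyclophilin A, had 10711 and 9458 beside 7863 and 6570, a difference of -0.08. In each of these the isoform exceeded the coding partner in both libraries, and the partner's introns were far lower, at 183 and 13.8 for Hsp90aa1, 149 and 40.7 for Gapdh and 212 and 26.7 for Ppia. The 3 isoforms are 487, 565 and 677 bases long, with 10.5%, 14.9% and 13.9% of their bases outside coding exons, so that nearly all of their sequence is shared with coding isoforms.

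The other 5 of the 8 highest members stood likewise near their partners. Atp5b-205, of the ATP synthase beta subunit, had a pair difference of 0.06, Nop56-208, of a snoRNP core protein, 0.07, and Eef1a1-203, of the elongation factor that brings tRNA to the ribosome, 0.12. Paics-207, of a purine synthesis enzyme, had -0.28, with 2281 in labeled and 7431 in unlabeled RNA. Hspa8-207, of a constitutive heat shock chaperone, had -0.44, with 3900 and 9177. The 8 differences thus lay between -0.44 and 0.35, none of them near 2-fold.

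The members highest above their partner, among the 1511 pairs with both means of 100 or more and taking 1 per gene, had most of their bases outside coding exons. Ndufa10-208, of a subunit of respiratory complex I, had 194 in labeled and 12.2 in unlabeled RNA, while its partner had 107 and 142, a pair difference of 4.29. It is a single exon with 89.4% of its bases outside coding exons, and its partner's introns had 20.3 and 2.11. Wbp11-202, of a splicing factor, had 176 and 63.6 beside 78.1 and 458, a difference of 3.99, but it lies upstream of the span of this partner, a shorter coding transcript of 3 exons, and shares none of its introns. Fxr1-203, of an RNA-binding protein related to FMRP, had 263 and 31.9 beside 636 and 1200, a difference of 3.92.

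The next in order were Morf4l1-208, of a chromodomain protein of histone acetyltransferase complexes, at 3.77, Phykpl-204, of a lyase of lysine breakdown, at 3.65, Ywhag-204, of a 14-3-3 protein, at 3.48, and Kat6b-213, of a histone acetyltransferase, at 3.02. Phykpl-204 had 302 in labeled and 33.2 in unlabeled RNA beside 262 and 372 for its partner. Among the 7 isoforms named here the share of bases outside coding exons ran from 72.5% to 89.4%. Besides the 75-base intron printed above, Phykpl-204 holds much longer intron sequence, since it is 3889 bases long with 75.7% outside coding exons and ends in an intron. Ndufa10-208, Fxr1-203 and Phykpl-204 lay above the introns of their own partner in log2 of labeled over unlabeled value. Morf4l1-208 was nearly level with them, at 2.79 against 2.81, and Ywhag-204 and Kat6b-213 lay under them.

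The members lowest under their partner were mostly exon. Cnbp-204, of a zinc-finger nucleic-acid-binding protein, had 165 in labeled and 590.3 in unlabeled RNA, while its partner had 1970.0 and 1697, a pair difference of -2.05. It keeps the 2 short introns printed above, and 24.3% of its bases lie outside coding exons. Actn4-203, of an actin crosslinker, had 30.2 and 235 beside 154 and 383, a difference of -1.62. Copa-208, of a COPI coat subunit, had 60.3 and 561 beside 86.6 and 335, a difference of -1.26. All 3 stood higher in unlabeled than in labeled RNA, with the partner of Cnbp-204 higher in labeled RNA and the other 2 partners not.

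Nmd3-202, of a nuclear export adaptor of the large ribosomal subunit, had a pair difference of -1.53, and Eif4a2-207, of an RNA helicase of translation initiation, -1.44. Ilf2-205, of a double-stranded-RNA-binding complex, had -1.30, Pold3-202, of a DNA polymerase delta subunit, -1.23, and Actg1-208, of cytoplasmic gamma actin, -1.21. The 8 isoforms had between 8.60% and 38.0% of bases outside coding exons. The introns of all 8 partners were higher in labeled than in unlabeled RNA, with log2 values of 1.40 to 2.99.

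**Figure D4:**
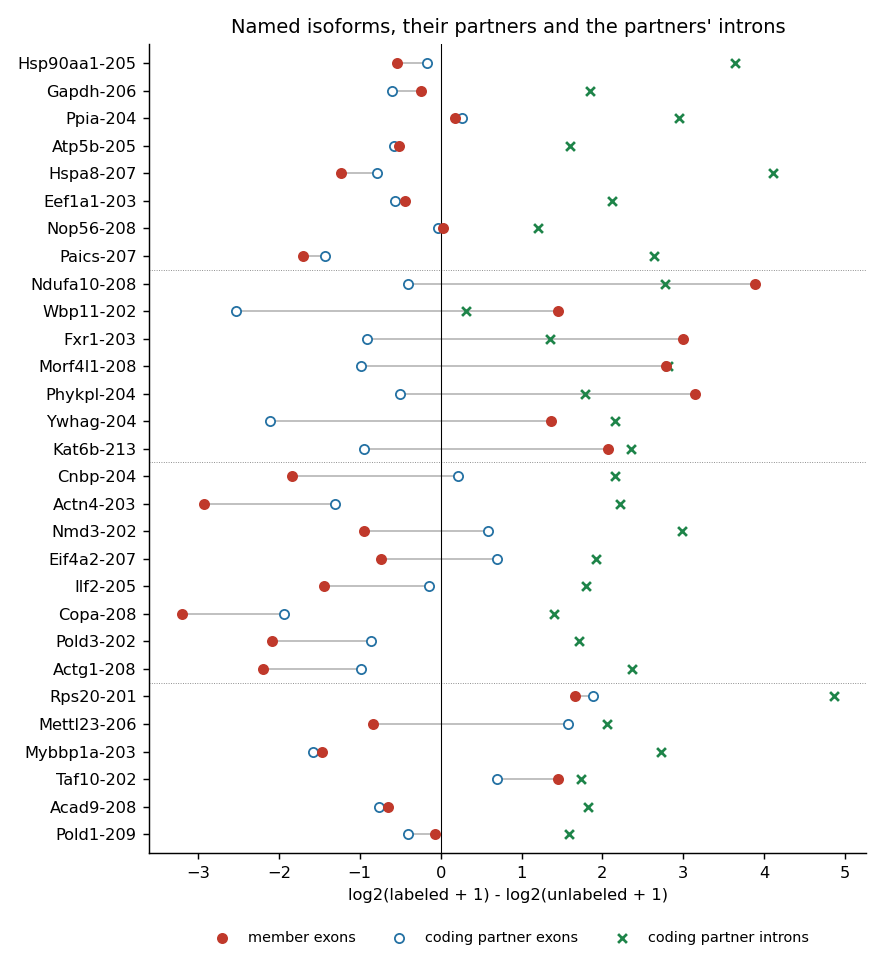
Log2 of labeled over unlabeled value, each with 1 added (horizontal axis), for the exons of 29 named isoforms (filled), the exons of their coding partners (open) and the partners' introns (crosses), in 4 blocks from top to bottom: highest level, highest pair difference, lowest pair difference and highest share of the gene. Filled and open points lie close together in the first block, and in the second the filled points lie from 1.37 to 3.88, to the right of the open points, some above and some below the crosses.

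Sister isoforms of these genes show the spread within a gene. Gapdh-206, with 14.9% of bases outside coding exons, was near its partner, while Gapdh-205, with 72.6% outside, had 219 in labeled and 47.0 in unlabeled RNA, a pair difference of 2.80. Copa-208 was at -1.26, while Copa-205, with 76.9% outside, had 20.1 and 14.5, a difference of 2.39. Cnbp-204, Cnbp-205 and Cnbp-207, with 15.4% to 24.3% outside, had differences of -2.05, -1.99 and -1.71, and Cnbp-206, with 75.9% outside, had 400.5 and 125 and a difference of 1.46. Other sisters with much sequence outside coding exons were not higher in labeled than in unlabeled RNA. Gapdh-213, with 64.8% outside, had 1979 and 2436, a difference of 0.30. Copa-207, with 74.3% outside, had 12.4 and 18.02, a difference of 1.43 from a partner that lay lower still. Phykpl-208, with 77.7% outside, had 371 and 483, a difference of 0.13. Sisters with a like share of such bases thus differed within these genes too. These sisters were chosen after their values had been seen.

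Some genes had most of their value in retained-intron isoforms in both libraries. In Rps20, of a small-subunit ribosomal protein, they held 89.1% of the labeled and 90.1% of the unlabeled value of its coding and retained-intron transcripts. Its Rps20-201 had 3710 and 1175 beside 873 and 236 for the partner, a pair difference of -0.23. In Mettl23, of a methyltransferase, they held 86.8% and 96.9%. Its Mettl23-206 had 1116 and 1992 beside 131 and 43.2, a difference of -2.41, so that most of the gene's unlabeled value lay in an isoform with 44.0% of its bases outside coding exons. Mybbp1a-203, of a nucleolar MYB-binding protein, Taf10-202, of a TFIID subunit, Acad9-208, of a mitochondrial acyl-CoA dehydrogenase, and Pold1-209, of the catalytic subunit of DNA polymerase delta, belonged to genes with at least 86.1% of the labeled value in such isoforms. Mybbp1a-203 has no base outside coding exons at all, so its sequence cannot be told from coding isoforms except by the exons it joins and its ends. Its value was 736 in labeled and 2034 in unlabeled RNA, a difference of 0.11 from its partner.

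Gene lists differed in their medians. The 118 pairs of zinc-finger genes with Zfp symbols, most of them DNA-binding repressors, had a median pair difference of 0.66, and 52, or 44.1%, were higher by 2-fold or more, where 25.5% of all members and 13.3% of all isoforms were. Zfp512b-210 was the only one lower by 2-fold or more, with 4.87 in labeled and 29.2 in unlabeled RNA. The Zfp list also had the highest median share of bases outside coding exons of the 14 lists, 50.4%, at a median exon value of 38.7. The 218 pairs of chromatin and DNA methylation genes had a median of 0.45 (interval 0.29 to 0.70), with 74, or 33.9%, higher. The 241 pairs of RNA-binding and splicing factors had 0.36 (interval 0.22 to 0.52), with 68, or 28.2%, higher and 7 lower. The median over all 7831 pairs was 0.30, which the intervals of the last 2 lists hold.

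Ribosomal protein genes lay near 0. Their 123 pairs had a median of 0.04, with 0 higher and 3, or 2.44%, lower by 2-fold or more, at a median exon value of 857. Over all isoforms other than the partner the shares were 13.3% higher and 4.72% lower. The 3 lower members were Rpl6-207, Rplp0-203 and Rpl6-206, at -1.88, -1.67 and -1.07. The 85 pairs of translation factors had a median of -0.10 and a median value of 298, and the 103 pairs of chaperones a median of 0.08. The 237 pairs of glycolytic and mitochondrial genes had a median of 0.10, with 26, or 11.0%, higher, near the share over all isoforms. The 16 pairs of pluripotency genes had a median of 0.06. Of these Stat3-212 was higher, at 1.47, and Stat3-206 lower, at -1.39. Ribosomal proteins and translation factors also had the highest levels of these lists, and over all genes the members at 300 or more had a median of 0.06. The remaining lists, of tRNA synthetases, proteasome and ubiquitin, transcription and Mediator, cell cycle and p53, DNA replication and repair, and nuclear transport, had medians of 0.21 to 0.30.

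**Figure D5:**
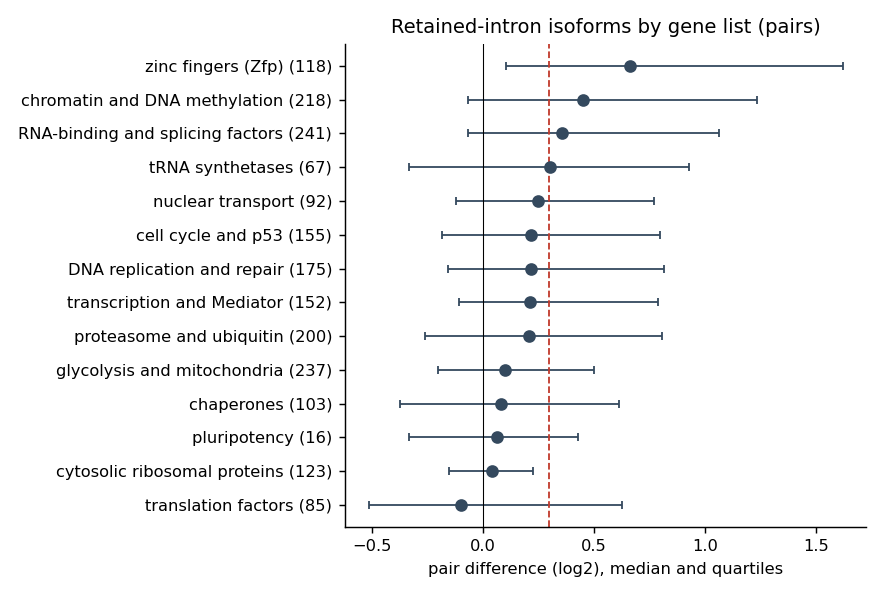
Median pair difference with its quartiles (horizontal axis, log2) for 14 gene lists, with the number of pairs of each beside its name and a dashed line at the median of all pairs, 0.30. Zfp genes lie highest at 0.66 and translation factors lowest at -0.10.

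Within the lists, the 2 members with the highest level were mostly near their partner. Among nuclear transport genes Kpna2-207, of an importin alpha, had 2014 in labeled and 1794 in unlabeled RNA beside 1224 and 2561 for its partner, a pair difference of 1.23, and Tpr-208, of the nuclear pore basket, had 0.44. Among splicing factors Luc7l3-208 had 0.73 and Srrm1-214 had -0.06. Among chromatin genes Trim28-203, of a heterochromatin corepressor, had 3282 and 6028 beside 752 and 1653, a difference of 0.26, and Jarid2-215, of a Polycomb cofactor, 0.36. Rpl31-204 and Rpl23a-202, of the large ribosomal subunit, had 0.25 and 0.38. Kpna2-207 was the only one of the highest 2 members of the 14 lists that lay above its partner by 2-fold or more. Some of these partners have few exons, such as 5 for that of Kpna2-207 and 3 for that of Jarid2-215.

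Some of the kept sequence carries another RNA. An annotated snoRNA or scaRNA, the guides of RNA modification that are cut out of introns, lay whole within an exon of 42 members of 26 genes on the same strand. The 39 of them with a measured pair had median exon values of 584 in labeled and 263 in unlabeled RNA and a median pair difference of -0.07 (interval -0.23 to 0.18). Their median mean exon value was 429, and all members at 300 or more had a median of 0.06, so level and the small RNA were not separated. Hibadh-205 was higher, with 65.7 and 7.37 and a difference of 3.24, and Rpl6-207 lower. Hspa8-208, of the chaperone gene named above, holds Snord14c, Snord14d and Snord14e and had 3260 and 5634, a difference of 0.0012. Rpl5-204, of a large-subunit ribosomal protein, holds Snord21 and had 4199 and 2136, a difference of 0.34. Whether reads of the small RNA enter these values was not tested.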

How the data were processed

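Labeled and unlabeled RNA of the same 4sU-treated mouse embryonic stem cells were measured in 1 library each. The authors set aside ribosomal RNA reads, mapped the others with STAR to the exons and introns of Ensembl v91 transcripts (GRCm38, mm10) and quantified both with RSEM. The submitters' processing notes give STAR 2.5.0. RSEM divides reads that several isoforms share among them by a statistical model, so the value of an isoform that shares most of its bases with others depends on that model. The authors deposited the result as TPM, but exon and intron values of a column add up to 10 times a TPM total, and it was therefore treated here as a score with its own unit. Depth is unknown, since the deposited table holds no counts, and counting error cannot be given. No sample column was left unmatched (0 columns).

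Biotypes, exons, coding sequences and transcript sequences were those of GENCODE M21 (GRCm38). Of the 121429 transcripts with an exon value, 110366 (90.9%) matched it. For each transcript log2((labeled + 1)/(unlabeled + 1)) was computed, and pairs were kept where both transcripts had a mean exon value of at least 10. A fold on this scale understates the change of low transcripts. A gap of 2-fold or more was used as a size, since 1 library per pool allows no test. The analysis had been planned in TPM and used the same thresholds on the deposited values. Shares have 95% Wilson intervals and medians exact order-statistic intervals, both over transcripts only.

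The members, gene lists and alternatives were chosen with earlier results of these data known. Named isoforms were the 8 with the highest mean exon value, the 8 highest and the 8 lowest in pair difference with both means of at least 100, the highest member of the 6 genes with a sum of at least 200 and the largest retained-intron share, in each case 1 per gene, and the 2 highest members of each of 14 gene lists. 1 isoform that this rule picked is not reported here. Others are marked as chosen later or stand for counts of 5 or fewer. Alternatives were other minimums, pseudocounts, partners and member sets, subtraction of 0.1 times the unlabeled value for leakage, and other reference sets. The work used scipy 1.17.1, pandas 2.3.3 and numpy 2.4.6 under Python 3.11.15, and figures were drawn with matplotlib 3.10.9.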

Additional observations from a re-analysis of the deposited data

How the results depend on the processing

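The median pair difference stayed above 0 under the 15 alternatives run, between 0.12 and 0.38, and the share higher by 2-fold or more exceeded the share lower in each. The triples below give this median, the percent higher and the percent lower by 2-fold or more, which were 0.30, 25.5 and 4.35 as reported. They were 0.36, 29.2 and 7.04 with a minimum of 1, 0.12, 9.73 and 1.66 with a minimum of 100, and 0.32, 28.1 and 7.47 with no minimum. With the minimum of 10 in unlabeled RNA only they were 0.20, 18.5 and 5.66, in labeled RNA only 0.38, 28.9 and 3.03, and with both values of the member at 10 or more, chosen after seeing the data, 0.24, 19.9 and 3.42. They were 0.27, 20.6 and 2.08 with a pseudocount of 10, 0.35, 27.2 and 3.42 with the partner highest in unlabeled RNA, 0.21, 19.4 and 3.62 for members with a whole kept intron, and 0.35, 29.4 and 6.56 after subtracting leakage. The median and the percent higher were 0.26 and 24.4 against the sum of all coding transcripts, 0.22 and 21.5 with 1 member per gene, and 0.25 and 22.3 without single-exon members, the last chosen after seeing the data. So was leaving out members outside the span of the partner, with 24.1% higher. Without a pseudocount all 3 stayed within their intervals.

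The median of members relative to all transcripts was 0.10 with a minimum of 1, turned to -0.0070 with a minimum of 100, and was 0.45 against coding transcripts only. The median share of a gene in labeled RNA was 33.9% with a gene sum of at least 100, and with all transcripts in the denominator the shares were 27.4% and 22.0%. With a minimum of 100 the intron to exon ratios were 0.194 and 0.0243 in members and 0.172 and 0.0233 in partners. With a pseudocount of 1 they were 0.398 and 0.0942 in members, and 0.0713 in unlabeled RNA in partners. Kept introns of members that reached the minimum of 10 had a median length of 269 against 940.0 for the other introns, and a GC content of 48.9%. Inside the coding sequence the other introns had 797. The causes were not tested. The planned comparison of splice sites and GC content with the other introns was not run, because the sequence of those introns was not used here. No paired analysis was possible because each pool has 1 library, both of replicate 1.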

Other observations

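Some members were listed at 0 in 1 library only. Of the members at 0 in unlabeled RNA, 40 had 10 or more in labeled RNA (36 with a partner above 0 in unlabeled RNA), with a median of 56.2% of their bases outside coding exons. The highest were Nubpl-202, of a mitochondrial iron-sulfur protein, with 30.8 in labeled RNA, Spaca6-213 with 28.1 and Atrn-205 with 24.7. Of the members at 0 in labeled RNA, 11 had 10 or more in unlabeled RNA (10 with a partner above 0 in labeled RNA), with a median of 17.3% of their bases outside. The highest was Vars-205, of the valyl-tRNA synthetase, with 55.6 in unlabeled RNA, while its partner had 15.7 in labeled and 100.5 in unlabeled RNA. A value of 0 can be a failed estimate of an isoform that shares its exons with others, so no fold is given. The matching counts over all transcripts are not given either, so 40 against 11 is not read as a trait of these isoforms. Members were named here after their values had been seen.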
